A study of Mus musculus with 20 samples.

Results

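The unfolded protein response genes described here are Hspa5, Hsp90b1, Sdf2l1, Dnajb9, Herpud1, Xbp1, Atf6, Atf4, Ddit3 and Trib3, a named list of sensors, transcription factors and targets of endoplasmic reticulum (ER) stress. Each was found by its symbol, and each had 1 row among the 51789 genes of the deposited expression table. RNA came from 2 compartments of the mouse intervertebral disc, its gel-like centre, the nucleus pulposus (NP), and the lamellar collagen wall that encloses it, the annulus fibrosus (AF). The BL6 mice were killed at 24 months. From 18 months of age all animals were injected intraperitoneally each week for 6 months (how many injections a week is not given), with DMSO alone (vehicle) or with MDL-800 in an equal amount of it. The compound activates the chromatin deacylase SIRT6. The 4 groups held 5 libraries each: NP vehicle (libraries 1, 2, 3, 5 and 6), NP MDL-800 (15, 18, 19, 20 and 22), AF vehicle (8, 9, 10, 12 and 13) and AF MDL-800 (25, 27, 28, 29 and 30). Values are given below in that order of libraries. The labels call the samples primary cells, but the protocol describes tissue dissected under a microscope and placed straight into a stabilising solution, and neither states sex, dose in mg or whether a library came from 1 mouse. There was no young or undosed group, so every library is from an aged animal that received DMSO.

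Secreted and membrane proteins fold in the ER with the help of chaperones. When unfolded proteins accumulate, the sensors PERK, IRE1 and ATF6 are released from the chaperone BiP: ATF6 is cut in the Golgi to yield a transcription factor, IRE1 splices Xbp1 mRNA so that it encodes an active factor, and PERK phosphorylates eIF2alpha, which slows translation and favours that of Atf4. Cells with a heavy secretory load, among them matrix-producing disc cells, plasma cells and osteoblasts, keep parts of this response on without injury. Much of its regulation lies in protein cleavage, splicing and translation. Gene-level RNA values such as these do not separate spliced from unspliced Xbp1, cut from uncut ATF6, or phosphorylated from unphosphorylated eIF2alpha.

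ATF6 together with NF-Y binds the ER stress response element (ERSE), a CCAAT box and a CCACG box held apart by a fixed spacer, and its shorter variant ERSE-II. The RefSeq promoter windows (GRCm38.p6, 250 bases before to 50 after the annotated start) held 9 of the 10 genes. The following stretches are shown because they are the only exact matches to either element in those 9 windows, with 5 flanking bases on each side in lower case and the element in capitals, each read 5′ to 3′ on the strand of the gene.
Hspa5, chr2:34772020-34772048, plus strand, element at -65 to -47: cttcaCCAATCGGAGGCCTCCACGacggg
Hsp90b1, chr10:86705633-86705661, minus strand, element at -212 to -194: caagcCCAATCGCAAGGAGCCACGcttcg
Hsp90b1, chr10:86705528-86705556, minus strand, element at -107 to -89 in reverse orientation: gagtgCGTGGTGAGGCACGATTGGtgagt
Herpud1, chr8:94386372-94386392, plus strand, ERSE-II at -52 to -42: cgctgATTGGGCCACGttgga

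The ERSE (CCAAT, then any 9 bases, then CCACG, on either strand) was present in 39 of 32851 RefSeq windows, or 0.119%, and in those of Hspa5 and Hsp90b1. The ERSE-II (ATTGG, then any 1 base, then CCACG, on either strand) was present in 12 windows, or 0.0365%, and in that of Herpud1. Its first 5 letters are a CCAAT box on the other strand. The XBP1 element TGACGTGG and the core of the ATF4 element, TGATGNAAT, were in 0 of the 9 windows, against 0.676% and 0.965% of all windows. These counts say only which letters lie in these windows. The Hspa5 element lies inside an exon of a longer Hspa5 transcript in the GENCODE M21 annotation, and the other stretches overlap no annotated exon.

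Sdf2l1 and Herpud1 are shown over the whole 250 bases before their starts, because Sdf2l1 had the largest difference between the compartments among the members (below) and lacked an exact ERSE. In Sdf2l1 the capitals mark each CCAAT or CCACG in either orientation, 3 of each. Over all windows of 300 bases 37.4% hold a CCAAT and 32.8% a CCACG. In Herpud1 the capitals mark the ERSE-II.
Sdf2l1, chr16:17132384-17132633, minus strand: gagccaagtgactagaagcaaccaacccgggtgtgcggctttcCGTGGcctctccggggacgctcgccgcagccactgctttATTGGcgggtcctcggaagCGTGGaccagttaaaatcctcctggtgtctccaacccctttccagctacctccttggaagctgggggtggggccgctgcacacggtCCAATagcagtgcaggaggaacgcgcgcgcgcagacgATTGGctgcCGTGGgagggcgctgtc
Herpud1, chr8:94386179-94386428, plus strand: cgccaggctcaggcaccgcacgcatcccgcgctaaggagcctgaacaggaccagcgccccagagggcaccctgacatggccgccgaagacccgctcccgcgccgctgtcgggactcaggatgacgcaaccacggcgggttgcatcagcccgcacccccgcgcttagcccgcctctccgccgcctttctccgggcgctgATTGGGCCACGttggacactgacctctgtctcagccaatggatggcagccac

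Levels below are scaled FPKM (fragments scaled for transcript length and sequencing depth, divided by a factor for each library), so that levels of different genes are compared per length. Differences are of log2(scaled FPKM + 1) with limma. A gene is called higher or lower at an adjusted p under 0.05, with adjustment over the 16383 genes that reached 1 FPKM in at least 5 of 20 libraries. All 10 members passed that filter, 9 of them with 1 FPKM or more in every library. Depth, estimated from the steps between low values, was 12.9 to 22.0 M reads a library. The reads behind a member's value were fewest for Trib3 (14 in NP vehicle library 1, at most 157), Sdf2l1 (59 to 398) and Ddit3 (170 to 540), and were at least 917 for every other member.

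The compartment labels were checked against marker genes. All 8 NP markers, such as T (brachyury) and Krt19, were called higher in NP vehicle than in AF vehicle, and 7 of 8 AF markers, such as Scx and Tnmd, were called lower. The summed level of the NP markers was 6618 to 9869 scaled FPKM in the NP libraries and 980 to 2984 in the AF libraries other than AF vehicle library 9, which was at 4177. AF libraries also held far more RNA of neighbouring cells. Plasma and B cell markers summed to 157 to 946 in NP vehicle and 1655 to 3932 in AF vehicle, with 7 of 9 called lower in NP. Bone cell markers summed to 10.2 to 94.5 against 253 to 1169, with 8 of 8 called lower, and the lists for neutrophils (8 of 8), macrophages (7 of 7), red blood cells (7 of 7), skeletal muscle (7 of 7) and endothelium (6 of 6) were called lower throughout. In bulk tissue, fewer cells of a type and less RNA per cell cannot be told apart.

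**Figure D1:**
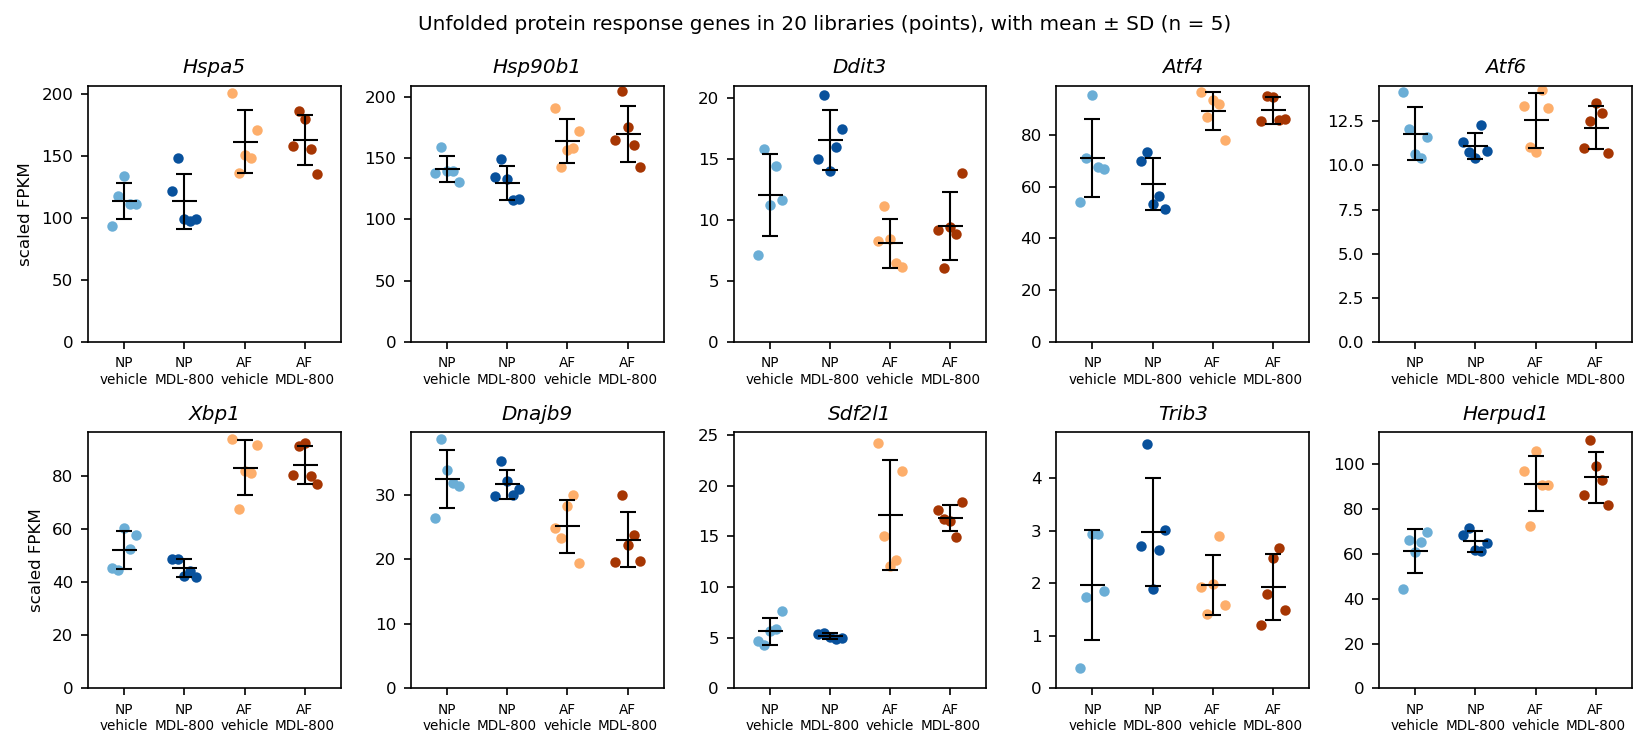
Scaled FPKM (linear axes from 0) of each gene in the 20 libraries, 1 point per library by group, with the mean and SD of 5 libraries as bars. The NP and AF points of Sdf2l1, Xbp1 and, by a narrow gap, Herpud1 do not overlap, while the vehicle and MDL-800 points of all 10 genes overlap within each compartment.

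In vehicle-treated mice, Sdf2l1, Xbp1, Herpud1 and Hspa5 were lower in NP than in AF, and Dnajb9 was higher. These 5 of 10 calls (1 higher and 4 lower) stand against 55.7% of all genes tested called in this comparison, 21.8% higher and 33.9% lower, so the share of members called is near the background. The median difference was -0.28 over the members and -0.08 over all genes. At an unadjusted p under 0.05 there were 7 members and 60.3% of all genes. NP and AF values did not overlap for 4 members, all lower in NP, against 41.0% of all genes (25.9% lower in NP). The balance of calls depends on the scaling: with libraries scaled to the sum over protein-coding genes 4612 genes were higher and 4803 lower (members 2 and 4), and with quantile normalization 6474 and 3925 (members 2 and 4), where the main scaling gave 3577 and 5550. These scalings moved the median gene by 0.12 and 0.33 on the log2 scale, and turned the sign of Atf6 and Trib3, which were not called. Without scaling, 6 members were called, all lower, where 3075 of all genes were called higher and 5899 lower.

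Hspa5 and Hsp90b1, the abundant ER chaperones BiP and GRP94, were the members with the highest levels in all 4 groups. Hspa5 measured 93.7, 118, 134, 111 and 111 scaled FPKM in NP vehicle and 201, 136, 151, 148 and 171 in AF vehicle. All 5 NP values lay below all 5 AF values, with NP library 3 and AF library 9 closest to each other. The means were 113 ± 14.4 and 161 ± 25.4 (SD, n = 5), a log2 difference of -0.50 (SE 0.13; limma adjusted p = 0.00703), or a level in AF 1.42 times that in NP. Hsp90b1 was at 131 to 159 in NP vehicle and 143 to 190 in AF vehicle, with overlapping values. Its difference of -0.21 was not called (95% interval -0.44 to 0.01; limma adjusted p = 0.0973), but it was called without AF vehicle library 9 (-0.26, limma adjusted p = 0.0460), the AF library with the most NP marker RNA. Hsp90b1 was also called lower without scaling and with the trend on gene GC content removed. Hsp90b1 shares 9.75% of its 50-base stretches with genes annotated on the same locus, and Hspa5 shares none.

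Sdf2l1, an ER protein that works with BiP and its J-domain partners, differed most among the members. It measured 4.69, 4.25, 5.68, 5.91 and 7.64 scaled FPKM in NP vehicle and 24.3, 15.0, 12.1, 12.7 and 21.4 in AF vehicle. Every AF value was above every NP value, and the AF libraries themselves fell into a higher pair (8 and 13) and 3 lower ones. The difference was -1.42 (SE 0.21; limma adjusted p = 2.244e-04), which on this scale is a ratio of 2.67 from NP to AF. Dnajb9, the J-domain cochaperone ERdj4 that acts on IRE1 and in ER-associated degradation, went the other way. It measured 26.4, 38.7, 33.9, 31.8 and 31.4 in NP vehicle and 24.8, 23.3, 28.2, 29.9 and 19.5 in AF vehicle, and the groups overlapped. Its difference of 0.36 (SE 0.13; limma adjusted p = 0.0404) lost its call when any of 7 of the 10 libraries was left out (limma adjusted p up to 0.0988), and also without scaling or with the GC trend removed. Dnajb9 shares 5.50% of its 50-base stretches with the gene Gm6568.

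Herpud1 recruits components of ER-associated degradation, which moves misfolded proteins to the proteasome. It measured 44.4, 66.2, 60.9, 65.1 and 69.8 scaled FPKM in NP vehicle and 97.1, 72.6, 106, 91.0 and 90.7 in AF vehicle. The groups did not overlap, with AF library 9 nearest to NP. The difference was -0.58 (SE 0.14; limma adjusted p = 0.00509). The antisense gene Gm15890 overlaps Herpud1, and whether reads were counted by strand is not given in the sources used here.

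Among the transcription factors, Xbp1 was lower in NP. It measured 45.2, 44.4, 60.4, 52.3 and 57.8 scaled FPKM in NP vehicle and 93.6, 67.3, 81.6, 80.8 and 91.5 in AF vehicle, without overlap. The difference was -0.67 (SE 0.12; limma adjusted p = 9.364e-04), a level in AF 1.59 times that in NP. Atf4, the effector of the PERK arm, was at 54.1 to 95.4 in NP vehicle and 78.0 to 96.7 in AF vehicle, a difference of -0.35 just short of a call (limma adjusted p = 0.0512). It was called without NP vehicle library 3, its highest NP library (-0.46, limma adjusted p = 0.00597), and without AF vehicle library 13 (-0.39, limma adjusted p = 0.0451). Runs without scaling and with all 4 groups in 1 fit also called Atf4 lower. Atf6 was nearly level, at 11.8 ± 1.5 in NP against 12.6 ± 1.56 in AF (SD, n = 5), with a difference of -0.08 and a 95% interval from -0.34 to 0.17.

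Ddit3 (CHOP), a factor of the ATF4 branch linked to cell death in prolonged stress, and its target Trib3, a pseudokinase, were not called. Ddit3 measured 7.14, 15.8, 11.2, 14.4 and 11.7 scaled FPKM in NP vehicle and 8.28, 11.2, 8.43, 6.43 and 6.11 in AF vehicle. Apart from NP library 1, each NP value was above the highest AF value, that of NP library 3 only slightly. The difference was 0.51 (SE 0.21; limma adjusted p = 0.0614), and it was called without NP vehicle library 1 (0.67, limma adjusted p = 0.0104) or without AF vehicle library 9 (0.62, limma adjusted p = 0.0290). Of 12 alternative runs, 4 also called it higher (limma adjusted p as low as 0.00636). These were the protein-coding sum, quantile normalization, all 4 groups in 1 fit, and removal of the GC trend. A small part of Ddit3, 4.38% of its 50-base stretches, is shared with the overlapping Mars and another gene on the opposite strand. Trib3, at 0.386, 1.73, 2.93, 2.93 and 1.85 in NP vehicle and 1.42 to 2.90 in AF vehicle, had a difference of -0.07 with a wide 95% interval from -0.68 to 0.53.

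Under MDL-800 the compartments differed in the same directions as in vehicle for the members called there, and 8 of 10 members were called (2 higher and 6 lower), against 62.8% of all genes, 25.6% higher and 37.2% lower. At an unadjusted p under 0.05 there were 8 members and 66.1% of all genes. Values did not overlap for 5 members, 4 of them lower in NP, against 49.1% of all genes (30.5% lower in NP). Here too the balance moved with the scaling, from 4188 genes higher and 6102 lower to 5149 and 5277 with the protein-coding sum (members 3 and 5) and 6919 and 4288 with quantile normalization (members 3 and 6). The vehicle and MDL-800 comparisons of compartments use different libraries. Sdf2l1 measured 5.39, 5.47, 5.10, 4.91 and 4.94 scaled FPKM in NP and 17.6, 16.8, 16.5, 14.9 and 18.4 in AF. Both groups were tighter than in vehicle, and the difference was -1.53 (SE 0.08; limma adjusted p = 7.114e-07). Xbp1, at 42.0 to 48.8 in NP and 76.7 to 92.2 in AF, differed by -0.88 (SE 0.08; limma adjusted p = 9.088e-06). Herpud1, at 61.1 to 71.6 against 82.0 to 111, differed by -0.51 (SE 0.10; limma adjusted p = 7.828e-04).

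Both chaperones were called lower in NP under MDL-800. Hspa5 measured 122, 148, 99.0, 97.8 and 99.1 scaled FPKM in NP and 158, 186, 179, 155 and 135 in AF. NP library 18 overlapped the AF range, and the difference was -0.53 (SE 0.14; limma adjusted p = 0.00614). Hsp90b1 differed by -0.38 (SE 0.11; limma adjusted p = 0.0125), a call that was lost when libraries were scaled to the sum over protein-coding genes.

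Atf4 and Ddit3 were called under MDL-800, Atf4 lower in NP and Ddit3 higher. In vehicle the main fit did not call them, but some alternative runs given above did. The change of that difference between treatments was itself tested and not called (below). Atf4 measured 69.9, 73.4, 53.3, 56.5 and 51.5 scaled FPKM in NP and 85.3, 95.2, 94.7, 85.7 and 86.3 in AF, a difference of -0.56 (SE 0.11; limma adjusted p = 0.00115) without overlap. Ddit3 measured 15.0, 20.3, 14.0, 16.0 and 17.5 in NP and 9.20, 6.04, 9.42, 8.85 and 13.8 in AF, again without overlap, with AF library 30 just under NP library 19. Its difference was 0.77 (SE 0.18; limma adjusted p = 0.00304). Dnajb9 was higher in NP by 0.45 (limma adjusted p = 0.00555). Trib3 (0.44, 95% interval -0.0044 to 0.87; limma adjusted p = 0.0783) and Atf6 (-0.11, 95% interval -0.31 to 0.08) were not called. Trib3 was called higher with the protein-coding sum (0.53, limma adjusted p = 0.0365) and with quantile normalization (0.97, limma adjusted p = 0.00103), and the sign of Atf6 turned under both.

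**Figure D2:**
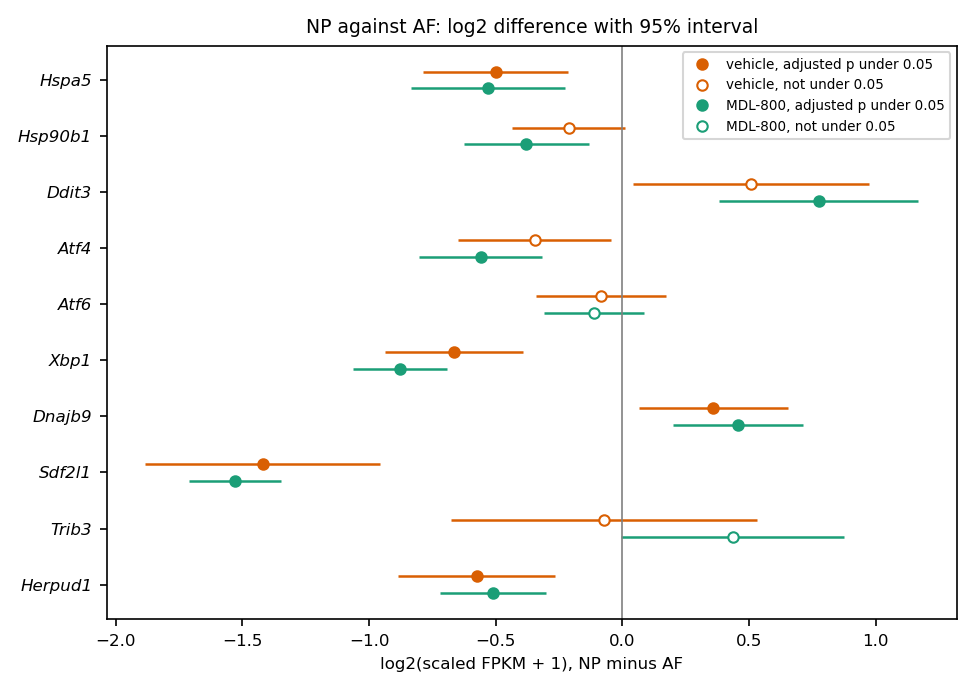
Difference between compartments for each gene, as log2(scaled FPKM + 1) in NP minus AF, with 95% intervals, in vehicle and under MDL-800 (5 libraries in each group); filled points have an adjusted p under 0.05. Sdf2l1 lies lowest at -1.42 and -1.53, and Ddit3 and Dnajb9 lie to the right of 0 in both treatments.

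RNA of neighbouring cells moved with these differences, and its part in them was not tested separately from the compartment. When the fit also held the mean of either marker list (plasma and B cells, or bone), 0 members and 0 genes were called with limma in either compartment comparison. In vehicle, 3157 genes and 0 members then had an unadjusted p under 0.05 with the plasma and B cell markers, and 2859 genes and 0 members with the bone markers. The Dnajb9 difference in vehicle turned to -0.06 with the plasma and B cell markers, and the Hspa5 difference to 0.02 with the bone markers. These markers separate the compartments completely, so covariate and compartment cannot be told apart. AF vehicle library 12 had the lowest sums of plasma and B cell markers (1655), bone markers (253) and endothelial markers (45.6) of all 10 AF libraries. Its skeletal muscle marker sum was 8975, exceeded among AF libraries only by AF MDL-800 library 29 (9120). Its plasma and B cell sum was still above that of every NP library (at most 946). In library 12 Sdf2l1 was at 12.7, Xbp1 at 80.8, Herpud1 at 91.0 and Hspa5 at 148, above every NP vehicle library. Sdf2l1 there was among the lowest AF values, and Dnajb9, at 29.9, was the highest AF vehicle value and within the NP range.

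The order of the members by mean level was alike in the 4 groups. Hsp90b1 and Hspa5 came first and overlapped each other, followed by Atf4, Herpud1 and Xbp1, then Dnajb9, and Trib3 was last in each group. In NP vehicle, Atf4, Herpud1 and Xbp1 overlapped their neighbours in that order, and so did Ddit3 and Atf6 (12.0 ± 3.33 and 11.8 ± 1.5, SD, n = 5). Sdf2l1 stood next to last in both NP groups, below Atf6 without overlap in both and below Ddit3 without overlap under MDL-800 only (in vehicle its highest value, 7.64, lay above the lowest Ddit3 value, 7.14), and above Ddit3 and Atf6 in both AF groups, where its vehicle values overlapped those of Atf6.

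MDL-800 against vehicle asked which of these genes respond to the compound in each compartment, and no member was called in NP or in AF. In NP, limma called 0 of 10 members (1 at an unadjusted p under 0.05), where 41 of 16383 genes, or 0.250%, were called, 38 of them higher (0.232%) and 3 lower (0.0183%). The number of genes called ranged from 2 (without NP vehicle library 3 or NP MDL-800 library 22) to 189 (without NP vehicle library 6), while members called stayed at 0 in each of those fits. The share of all genes with an unadjusted p under 0.05 was 14.1%. No member's vehicle and MDL-800 values were free of overlap, against 4.50% of all genes (3.50% higher, 1.00% lower).

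Ddit3 was the member with the smallest p in NP. As given above, its MDL-800 values ran from 14.0 to 20.3 scaled FPKM and its vehicle values from 7.14 to 15.8. The means were 16.5 ± 2.45 and 12.0 ± 3.33 (SD, n = 5), a difference of 0.46 (SE 0.18, 95% interval 0.05 to 0.86), with an unadjusted p of 0.0299 and a limma adjusted p of 0.288. Without NP vehicle library 1, whose Ddit3 was lowest, the difference was 0.30 (limma adjusted p = 0.427). Trib3 was at 2.71, 4.65, 1.89, 2.62 and 3.01 in NP MDL-800, a difference of 0.48 with a 95% interval from -0.15 to 1.11 (limma adjusted p = 0.489). It fell to 0.23 without NP vehicle library 1 and to 0.09 with the trend on GC content removed. That trend was removed as a smooth curve for each library. A straight-line slope on the GC content of genes, in log2 per 10% GC, was computed apart from it. This slope was -0.31 and -0.30 in NP vehicle libraries 1 and 2. In NP vehicle libraries 3, 5 and 6 it was -0.05 to -0.01, and in NP MDL-800 0.03 to 0.10, without overlap. Of Trib3 bases 59.2% are G or C, the highest of the members.

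The other members had smaller estimates in NP. For Hspa5 the difference was -0.01, with a 95% interval from -0.31 to 0.28. Xbp1 had -0.19 (95% interval -0.41 to 0.02; limma adjusted p = 0.417) and Atf4 -0.21 (95% interval -0.54 to 0.12). The remaining members lay between -0.12 (Hsp90b1) and 0.11 (Herpud1). With the GC trend removed 4 members had an unadjusted p under 0.05, where 11.0% of all genes did, and none was called. Sdf2l1 then moved from -0.09 to -0.33 and had the smallest p of the members (unadjusted p = 0.00571, limma adjusted p = 0.217). Atf4 was at -0.36 (limma adjusted p = 0.386), Xbp1 at -0.23 (limma adjusted p = 0.379) and Ddit3 at 0.43 (limma adjusted p = 0.419).

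In AF, limma called 0 of 10 members and 0 of 16383 genes (0.00%), with 0 members and 270 genes (1.65%) at an unadjusted p under 0.05. Member differences ran from -0.12 for Dnajb9 (95% interval -0.45 to 0.21) to 0.19 for Ddit3 (95% interval -0.27 to 0.65). Hspa5 had a mean of 161 ± 25.4 with vehicle and of 163 ± 20.3 with MDL-800 (SD, n = 5), a difference of 0.02 with a 95% interval from -0.28 to 0.32. No member's values were free of overlap, against 0.226% of all genes.

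The treatment effect was not shown to differ between compartments for any member. In the test of that difference, limma called 0 members and 0 genes (0.00%), with 0 members and 611 genes (3.73%) at an unadjusted p under 0.05. The estimate for Ddit3 was 0.27 (95% interval -0.33 to 0.87) and that for Trib3 0.51 (95% interval -0.23 to 1.24). Averaged over both compartments, limma called 0 members (1 at an unadjusted p under 0.05) and 4 genes (0.0244%), 2 higher (0.0122%) and 2 lower (0.0122%), with 9.12% of genes at an unadjusted p under 0.05. Ddit3 again had the smallest p of the members there, with 0.33 (SE 0.14; unadjusted p = 0.0344, limma adjusted p = 0.507).

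**Figure D3:**
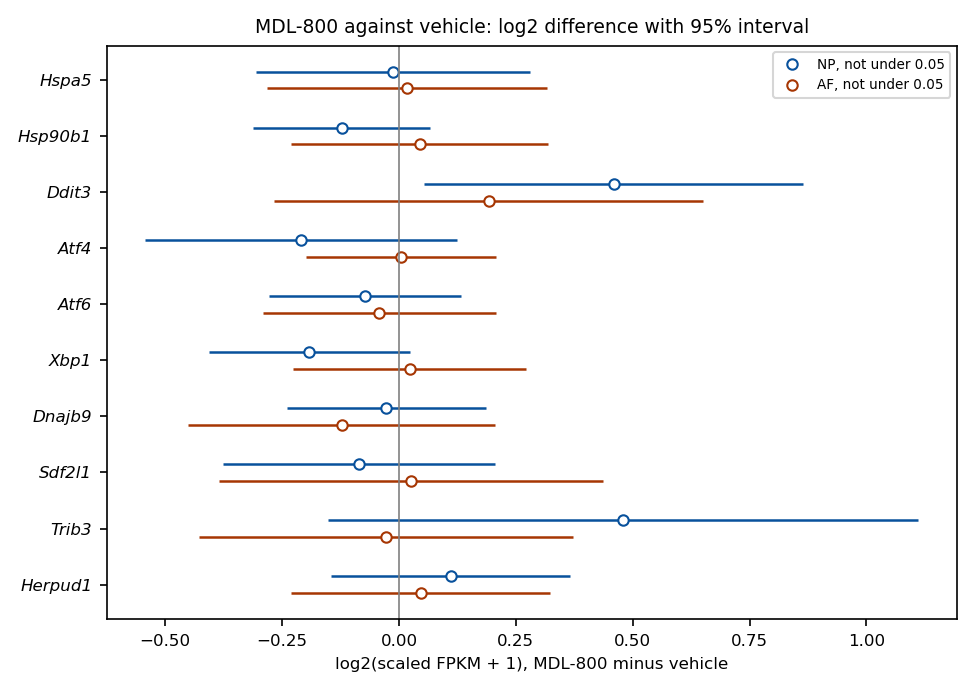
Difference between treatments for each gene, as log2(scaled FPKM + 1) under MDL-800 minus vehicle, with 95% intervals, in NP and in AF (5 libraries in each group); no point has an adjusted p under 0.05. All intervals include 0 except that of Ddit3 in NP, at 0.05 to 0.86.

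The wider pathway was described with 7 further lists. The sensors, kinases and phosphatase subunits that feed into the response differed between compartments in vehicle for 7 of 11 tested genes, 2 higher in NP and 5 lower. Of all genes 55.7% were called, 21.8% higher and 33.9% lower. With quantile normalization the balance of this list became 4 and 3, where that of all genes turned to 6474 higher and 3925 lower. Eif2ak3, which encodes PERK, averaged 20.1 ± 1.36 scaled FPKM in NP against 15.6 ± 1.82 in AF (SD, n = 5), a difference of 0.35 (limma adjusted p = 0.0103). Eif2ak1, the haem-regulated eIF2alpha kinase, was at 13.0 ± 2.03 and 28.1 ± 4.14 (SD, n = 5), a difference of -1.06 (limma adjusted p = 9.032e-05). It is abundant in red cell precursors, and red blood cell markers summed to 44.2 to 177 in NP vehicle and 635 to 2074 in AF vehicle. Its part in the Eif2ak1 result was not tested. Ppp1r15b, a subunit of the eIF2alpha phosphatase, differed by -0.74, at 19.9 ± 3.65 against 33.7 ± 5.37 (SD, n = 5).

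Creb3l1 and Creb3l2, ER-bound factors that are cut in the Golgi like ATF6 and drive secretory and matrix programmes in bone and cartilage, had opposite patterns. Creb3l2 was at 156 ± 34.8 scaled FPKM in NP vehicle and 49.8 ± 13.7 in AF vehicle (SD, n = 5), a difference of 1.65 (SE 0.20; limma adjusted p = 7.53e-05). Creb3l1 was at 1.42 ± 0.33 and 11.8 ± 5.89 (SD, n = 5), a difference of -2.29 (SE 0.28; limma adjusted p = 6.975e-05). Neither pair of groups overlapped. Bone cell markers, like those of the other neighbouring cells given above, were also lower in NP, and their part was not tested. Creb3 was higher in NP by 0.50. Of the 4 tested genes of this family, 2 were called higher and 1 lower, against 21.8% and 33.9% of all genes.

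Of 18 ER chaperones and folding enzymes outside the members, 1 was higher in NP vehicle and 9 were lower, with a median difference of -0.37. With the protein-coding sum 5 were higher and 8 lower, where 4612 of all genes were higher and 4803 lower. Manf, a secreted ER stress protein, was at 36.4 ± 4.46 against 81.5 ± 16.1 (SD, n = 5), and Ppib, a prolyl isomerase that acts on collagen, at 105 ± 12.8 against 224 ± 26.6 (SD, n = 5). The oxidase gene Ero1l was the 1 higher in NP, by 0.50. ER translocation and export had a like pattern, with 1 of 14 higher and 8 lower and a median of -0.37. Sec61b, a subunit of the translocon, was at 25.1 ± 3.49 against 70.6 ± 16.2 (SD, n = 5), and Serp1 differed by -0.96. The share lower among all genes was 33.9%. Markers of all the neighbouring cell types listed above were also lower in NP in the same libraries, and their part was not tested.

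ER-associated degradation was mixed, with 3 of 14 genes higher in NP vehicle, 1 lower and a median of 0.01. The share higher is near the 21.8% of all genes, and the share lower (7.14%) is below their 33.9%. Under MDL-800 3 were higher and 4 lower, against 25.6% and 37.2% of all genes. Sel1l, the scaffold of the HRD1 ligase, averaged 57.8 ± 4.07 in NP against 36.1 ± 3.59 in AF (SD, n = 5), a difference of 0.67 (limma adjusted p = 1.437e-04). Edem1, a lectin that hands glycoproteins to this route, was at 9.52 ± 1.79 against 25.8 ± 6.15 (SD, n = 5), a difference of -1.33 (limma adjusted p = 1.206e-04). Herpud2, the paralog of Herpud1, was higher in NP by 0.28, opposite to Herpud1.

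Of 20 amino acid and stress targets of ATF4, 4 were higher in NP vehicle and 11 lower, against 21.8% and 33.9% of all genes, and under MDL-800 7 were higher and 10 lower, against 25.6% and 37.2%. Phgdh and Psat1, enzymes of serine synthesis, were at 1.00 ± 0.73 against 13.6 ± 5.10 and at 4.10 ± 0.61 against 13.1 ± 3.27 (SD, n = 5). Ddit4, a stress-induced inhibitor of mTORC1 that is also induced by hypoxia, averaged 61.8 ± 21.3 in NP against 27.7 ± 10.1 in AF (SD, n = 5), with a difference of 1.15. Vldlr, a lipoprotein receptor, was higher by 0.91 (limma adjusted p = 0.0212), a call lost when library 3 of NP vehicle or library 13 of AF vehicle was left out (limma adjusted p up to 0.0520). Of 8 cell death genes linked to ER stress, 2 were higher and 2 lower, against 21.8% and 33.9% of all genes. The split was 3 and 1 with the protein-coding sum, where 4612 of all genes were higher and 4803 lower. It was 4 and 1 with quantile normalization (all genes 6474 and 3925), and 4 and 1 under MDL-800 (all genes 25.6% and 37.2%). Casp12 averaged 50.5 ± 6.57 in NP against 25.1 ± 6.94 in AF, and Pmaip1 (Noxa) at 12.9 ± 3.45 and 5.15 ± 1.97 (SD, n = 5). Bak1, which opens the mitochondrial membrane, averaged 10.2 ± 2.21 in NP against 26.7 ± 8.28 in AF (SD, n = 5), and Bcl2l11 differed by -0.43 (limma adjusted p = 0.0365). The Bcl2l11 call was lost when any of 7 of the 10 libraries was left out, with the protein-coding sum and with quantile normalization.

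**Figure D4:**
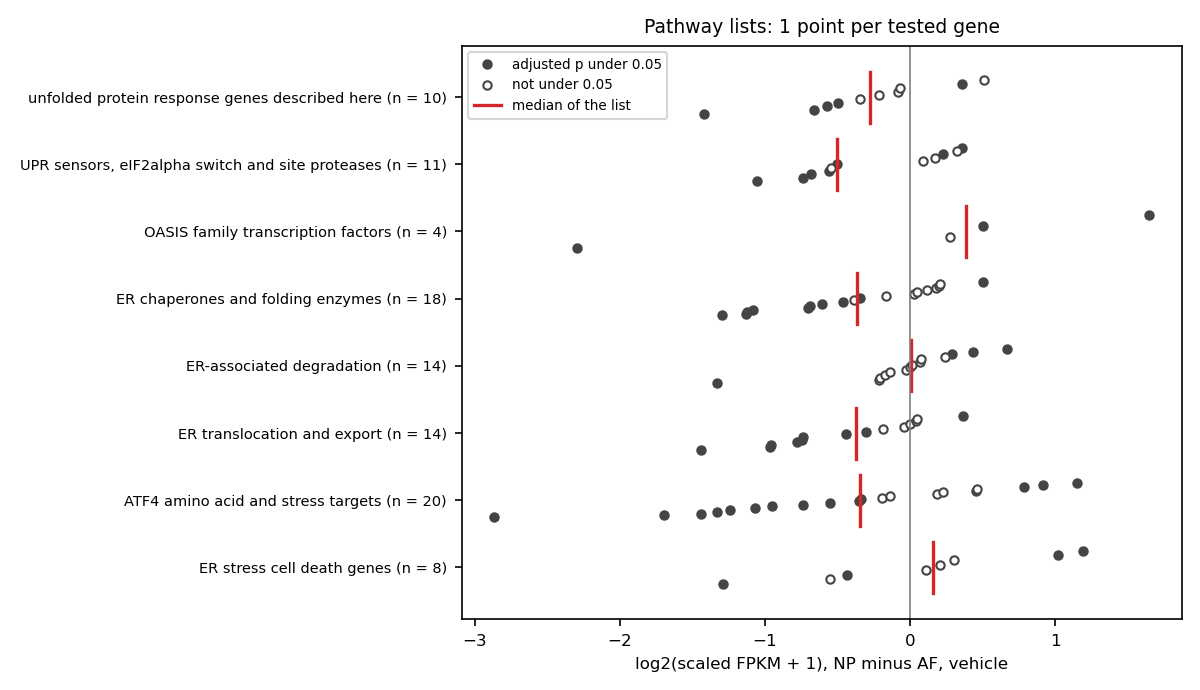
Difference between compartments in vehicle, as log2(scaled FPKM + 1) in NP minus AF, with 1 point for each tested gene of the described genes and of 7 further lists; filled points have an adjusted p under 0.05 and the line marks the median. The medians run from -0.50 for the list of sensors, kinases and phosphatase subunits to 0.39 for the OASIS family (Creb3, Creb3l1 and their relatives).

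With MDL-800 limma called 0 genes of these 7 lists in NP and 0 in AF. At an unadjusted p under 0.05 there were in NP 7 of 20 ATF4 targets, 6 of 14 translocation genes, 3 of 14 degradation genes and 2 of 18 chaperones. So were 2 of 8 cell death genes, 1 of 4 OASIS genes and 1 of 11 in the list of sensors, kinases and phosphatase subunits. Of all genes, 14.1% were under that p in NP. In AF there were 0 in every list. In NP the gene with the smallest p was Shmt2, a mitochondrial enzyme of serine use, at 26.1 ± 3.91 in vehicle against 40.1 ± 5.64 under MDL-800 (SD, n = 5), a difference of 0.60 (limma adjusted p = 0.0722). It was called without NP vehicle library 6 (limma adjusted p = 0.0360). Tmbim6 (Bax inhibitor 1), a protein that restrains ER stress signalling, was at 200 ± 17.5 and 246 ± 10.7 (SD, n = 5), without overlap but not called (0.30, limma adjusted p = 0.101). Creb3 was at 33.1 ± 4.20 and 26.0 ± 0.79 (SD, n = 5), also without overlap and not called (-0.33, limma adjusted p = 0.119). The GC slope described above separates the same libraries, by little for NP vehicle libraries 3, 5 and 6. With the GC trend removed, the difference was 0.28 for Shmt2 (limma adjusted p = 0.314), 0.24 for Tmbim6 (limma adjusted p = 0.168) and -0.40 for Creb3 (limma adjusted p = 0.107). Atf6b, at 0.35 in NP (limma adjusted p = 0.182), then turned to -0.12.

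Deviations of single libraries from their group mean were compared next. In NP vehicle library 1, 9 of 10 members lay below their group mean, and the exception was Atf6. AF vehicle library 9, the AF library with the most NP marker RNA, also had 9 of 10 below the mean, with Ddit3 as the exception. NP MDL-800 library 20 had 9 of 10 below as well, and NP MDL-800 library 18 and AF vehicle library 8 had 9 of 10 above. The share of all genes below the mean in these libraries was not counted. After removal of group means, Hspa5 correlated over the 20 libraries with Hsp90b1 (r = 0.81, rank 14 of 16382 genes), Xbp1 (r = 0.76, rank 49) and Atf4 (r = 0.74, rank 73). For Ddit3 the correlation was -0.02 with Hspa5, 0.25 with Atf4, 0.34 with Trib3 and -0.60 with Atf6. Among the genes most like Hspa5 were Osbp (r = 0.86), Sox4 (0.85), Urb2 (0.84) and Trib1 (0.83), and the 5 most like Ddit3 were Dazap2 (0.83), Dis3l2 (0.83), Mafk (0.81), Sox12 (0.80) and Tprgl (0.80). These values describe the libraries, which share depth, dissection and base composition effects, and carry no test.

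**Figure D5:**
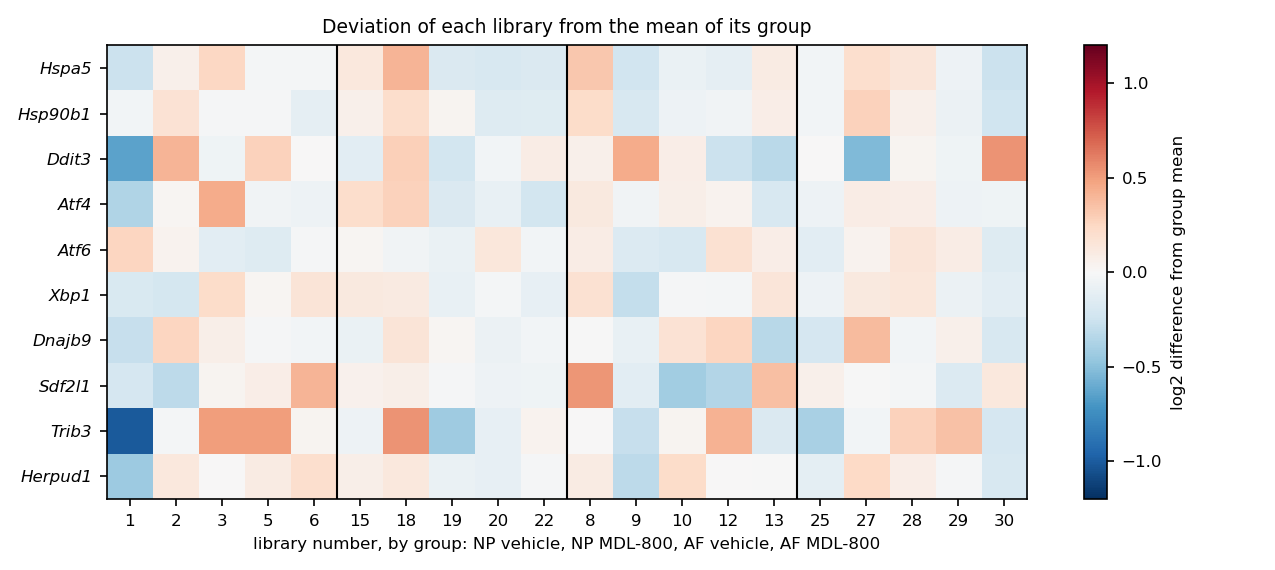
Deviation of each library from the mean of its group, in log2(scaled FPKM + 1), for the 10 genes (rows) and 20 libraries (columns, with lines between groups). Library 1 is blue for every gene but Atf6, and Ddit3 is blue in library 27 and red in library 30, where Hspa5 and Hsp90b1 have the opposite sign.

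Genes with these promoter elements were then compared between compartments. Hspa5 and Hsp90b1, both with an ERSE, had compartment differences of -0.50 (called) and -0.21 (not called) in vehicle. Of the 18 tested genes with an ERSE in their window, 1 was called higher in NP vehicle and 6 lower, with a median of -0.20. Of all genes 55.7% were called, 21.8% higher and 33.9% lower, so the share lower is near the background and the share called is below it. They include Calr, Canx, Pdia6, Dnajc3, Creld2 and Syvn1 of the further lists. Of the 8 tested genes with an ERSE-II, among them Herpud1 and Dnajb11, 2 were called higher and 3 lower.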

How the data were processed

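The authors deposited 1 table of FPKM values with a column for each of the 20 libraries, made from stranded total RNA after rRNA depletion (50 ng input, 14 PCR cycles, per the labels' protocols). The submitters' processing notes name STAR 2.7.11b and mm10. The annotation, counter and strand setting are not given in the sources used here. Deposited FPKM values were scaled by median-of-ratios factors (0.933 to 1.06) from the 11308 genes that every library held at 1 FPKM or above, and log2(scaled FPKM + 1) was tested with limma 3.58.1 in R 4.3.3 (trend, two-sided, Benjamini-Hochberg), using only the groups compared, or all 4 for the difference and the mean of both treatment effects. The pseudocount of 1 understates changes of low genes. Simulated data, in which each gene kept the spread of each group, gave for NP against AF in vehicle 128 of 200 true changes at a log2 size of 1 with 15 false calls (10.5% of calls), and 183 at a size of 2 with 17 false (8.50%). For NP MDL-800 against vehicle they gave 146 with 9 false (5.81%) and 193 with 23 false (10.6%). Over all 6 comparisons 5.81% to 14.6% of simulated calls were false, above the nominal 5%. Where few genes differ, calls close to the threshold are thus less sure than their adjusted p states. The simulation changed only 200 of 16383 genes, where 9127 were called between compartments in vehicle and 10290 under MDL-800. Its false shares do not carry over to those comparisons, for which the share of false calls was not measured. Depth was estimated from steps in low values (78.5% to 83.4% of them fell on steps, within 0.15 reads). Markers, pathway lists and members were chosen with earlier results of these data known. Of each further list, up to 2 called genes in each direction with the smallest p are named, or the 1 with the smallest p where none was called, and for likeness the 5 highest correlations, of which 1 is not reported here. Gene overlaps come from GENCODE M21 (GRCm38), which holds 51596 of the gene identifiers, and promoters from RefSeq (GRCm38.p6). Nothing in the labels says that libraries of a group came from separate mice, so p-values measure the spread between these samples.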

Additional observations from a re-analysis of the deposited data

Results flagged for a closer look

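For a highest or lowest value far from the rest, 212 groups of 5 libraries were searched (a gap to its neighbour above 0.71 of the group's range). They cover the members and the genes picked from the further lists by the smallest-p rule given above, not the whole lists. Since those genes were picked by p, the chance value that follows is only a guide. Chance would give about 10.6 such values at 1 in 20, and 6 were found, none of them in a member. In AF MDL-800 the highest Atf5 value was 30.5 scaled FPKM in library 29, with the next at 23.5. Creb3l2 was highest at 75.3 in AF MDL-800 library 25 (next 45.1) and lowest at 122 in NP MDL-800 library 19 (next 138). AF MDL-800 library 27 was highest for Ppib at 257 (next 223) and for Spcs2 at 86.0 (next 76.5). Sec61b was highest at 97.5 in AF MDL-800 library 30 (next 76.7).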

How the results depend on the processing

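The call of Sdf2l1, Xbp1, Herpud1 and Hspa5 as lower in NP was kept in both treatments under each omission of 1 library and each alternative run other than the marker covariates, which left 0 members and 0 genes called in either compartment comparison. Leaving out 1 library gave 4 to 6 member calls in vehicle, beside 8291 to 9138 of all 16383 genes. Under MDL-800 it gave 8 to 9 member calls, beside 9572 to about 10280 genes. In every treatment comparison it gave 0 member calls. The reads behind Trib3 (as few as 14) and Sdf2l1 (as few as 59) limit their precision, and Hsp90b1, Dnajb9 and Ddit3 share sequence with other genes. The cause of the changes below was not tested.

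The sample titles of the groups share no replicate numbers, but the deposited column names hold a further number that recurs between compartments. Same-numbered libraries deviated together only in part (r from -0.18 to 0.29 over 5 vehicle pairs, -0.18 to 0.17 over 3 MDL-800 pairs). The rule used for pairing (every r over 0.1) was not met, so the main compartment tests are unpaired. With so few pairs, that rule cannot decide whether the number marks a shared mouse. With that number as a replicate block, an alternative chosen after seeing the data, 4 members and 8783 genes were called in vehicle, 7 members and 7858 genes under MDL-800 (3 libraries a group; Dnajb9 lost in both), 0 members and 0 genes (726 at an unadjusted p under 0.05) for the difference of effects, and 1 gene for the mean effect.

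The 41 genes called in NP with MDL-800 became 16 without a filter, 74 with 1 FPKM in at least 10 libraries, 18 without scaling, 27 with the protein-coding sum, 70 with quantile normalization, 4 with all 4 groups in 1 fit, 18 without the mean-variance trend, 21 with the GC trend removed, and 13 with either marker covariate. Leaving out 1 library gave 2 to 189. In AF these omissions gave 0 to 1 gene, for the difference of effects 0 to 1, and for the mean effect 1 to 62 (62 without AF MDL-800 library 27). The 4 genes of the mean effect became 2 without a filter, without scaling or with quantile normalization, 1 without the trend, with the GC trend removed or with the plasma and B cell covariate, and 0 with the bone covariate (1088 at an unadjusted p under 0.05).

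Signs turned as follows. With the GC trend removed, the NP treatment difference was 0.0340 for Hspa5, 0.0408 for Dnajb9 and -0.12 for Atf6b, that in AF -0.0305 for Atf4 and -0.0257 for Sdf2l1, that between effects 0.00906 for Hspa5 and 0.0200 for Atf6, the mean effect 4.91e-05 for Hsp90b1 and -0.00949 for Trib3, and Trib3 between compartments in vehicle 0.0424. With the protein-coding sum, AF treatment differences were -0.0124 for Hspa5, -0.0256 for Atf4, -0.00668 for Xbp1 and -0.00236 for Sdf2l1, the mean effect for Hspa5 -0.0272, and compartment differences 0.0477 (Atf6) and 0.0192 (Trib3) in vehicle and 0.0172 (Atf6) under MDL-800. With quantile normalization, Atf4 in AF was -0.00881 and compartment differences were 0.18 (Atf6) and 0.46 (Trib3) in vehicle and 0.15 (Atf6) under MDL-800. Without scaling, the mean effect for Hspa5 was -0.00504. With the plasma and B cell covariate, the values were 0.0163 for Hspa5 in NP, -0.0663 for Sdf2l1 and 0.0978 for Trib3 in AF, -0.0552 for Dnajb9 and -0.56 for Vldlr between compartments in vehicle, and 0.00924 for Hspa5 and 0.0194 for Sdf2l1 between effects. With the bone covariate, they were -0.10 for Hspa5, -0.0176 for Hsp90b1, -0.0595 for Xbp1, 0.0154 for Dnajb9, -0.25 for Sdf2l1, 0.0692 for Trib3 and -0.11 for Creb3l1 in AF, 0.0217 for Hspa5 and -0.75 for Vldlr between compartments in vehicle, -0.21 for Mbtps1 under MDL-800, 0.0643 for Hspa5 and 0.0850 for Sdf2l1 between effects, and -0.0270 for the mean effect of Hspa5.

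Over the omissions of 1 library, signs turned within these ranges. In NP with MDL-800 they were -0.11 to 0.0484 for Hspa5, -0.0962 to 0.0373 for Dnajb9 and -0.16 to 0.0154 for Sdf2l1. In AF they were -0.0414 to 0.0990 for Hspa5, -0.0255 to 0.10 for Hsp90b1, -0.0435 to 0.0327 for Atf4, -0.0915 to 0.00318 for Atf6, -0.0493 to 0.0681 for Xbp1, -0.0777 to 0.16 for Sdf2l1, -0.12 to 0.0770 for Trib3 and -0.0332 to 0.10 for Herpud1. Between compartments in vehicle it was -0.20 to 0.18 for Trib3. For the difference of effects they were -0.13 to 0.0313 for Hspa5, -0.0759 to 0.0332 for Atf6 and -0.0461 to 0.14 for Herpud1, and for the mean effect -0.0488 to 0.0431 for Hspa5 and -0.0816 to 0.0364 for Sdf2l1.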
